A study of Mus musculus with 18 samples.

Results

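The 10 genes described here are 7 Toll-like receptors (Tlr1, Tlr2, Tlr4, Tlr6, Tlr7, Tlr9 and Tlr13), the co-receptors Cd14 and Ly96, and the adaptor Myd88. They were taken by name, not by their values, as 10 of the 23899 genes in a table of transcript levels from cultured mouse leukaemia cells. These cells were grown from a primary leukaemia of the mouse driven by MLL-AF9, the fusion of the histone methyltransferase gene MLL with AF9, and all carry the nuclease Cas9 and were kept in RPMI medium with serum and mouse interleukin-3. Of 6 groups with 3 libraries each, 4 carry guide RNAs (e21.1, e20.1, e12.4 or e12.3) directed at the jumonji and zinc finger domains of the histone demethylase gene Jmjd1c. One control group carries a guide against Renilla, a luciferase gene that mouse cells lack, and the other is labelled mock. The labels leave out which guide cuts which domain, what the mock cells received, the share of edited cells and whether replicates were separate cultures, so p-values measure the spread between these libraries, which may be technical.

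Toll-like receptors recognise molecules of microbes and, in some cases, of damaged cells. Tlr2 pairs with Tlr1 or Tlr6 at the cell surface and binds bacterial lipopeptides, while Tlr4 together with Ly96 (MD-2) binds lipopolysaccharide handed over by Cd14. Tlr7, Tlr9 and Tlr13 sit in endosomes and sense single-stranded RNA, unmethylated CpG DNA and bacterial ribosomal RNA. All of these receptors can signal through the adaptor Myd88 to NF-kB, AP-1 and IRF factors, and monocytes, macrophages and neutrophils are among the cells known for this pathway.

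Values are FPKM, read fragments scaled to transcript length and to library size, so levels can be set side by side between genes as well as libraries. Estimated depth was 20.7 to 181.1 M reads per library (median 32.0), and 0.1 FPKM of a 3 kb transcript stood for 6.2 to 54.3 reads. The label was checked against its markers, and the 7 listed genes of myeloid leukaemia cells were all expressed. The targeted gene, Jmjd1c, was transcribed in every library, at 42.2 to 74.4 FPKM in the 12 guide libraries and 64.2 to 85.4 FPKM in the 6 controls, and these ranges overlap. A transcript level does not measure cutting of the gene or loss of the protein. Both e21.1 and e12.3 have a library, replicate 3 in each case, that stood apart from the other guide libraries in several of the 10 genes. Results that rest on this pair are given with and without it. The pair was known from these same data, so the fits without it are no independent support.

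Promoter windows, the 250 bases before the start of a transcript in RefSeq (GRCm38.p6), were at hand for 6 of the 10 genes in 8 windows. Those of 5 genes whose transcripts were higher with the Jmjd1c guides are printed 5′ to 3′ on the strand of the gene. Capitals mark matches to binding motifs of factors that act in myeloid cells or downstream of Toll-like receptors. The windows are chr3:83841609-83841858 (minus strand) for Tlr2, chr5:64933559-64933808 (minus) for Tlr1, chrX:106143025-106143274 (plus) for Tlr13, chr9:106222348-106222597 (plus) for Tlr9 and chr9:119340019-119340268 (minus) for Myd88.
Tlr2: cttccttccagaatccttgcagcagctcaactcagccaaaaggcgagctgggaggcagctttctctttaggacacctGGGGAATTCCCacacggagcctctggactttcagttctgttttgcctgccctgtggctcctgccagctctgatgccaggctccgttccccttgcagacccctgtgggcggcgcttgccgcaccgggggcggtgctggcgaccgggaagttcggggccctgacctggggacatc
Tlr1: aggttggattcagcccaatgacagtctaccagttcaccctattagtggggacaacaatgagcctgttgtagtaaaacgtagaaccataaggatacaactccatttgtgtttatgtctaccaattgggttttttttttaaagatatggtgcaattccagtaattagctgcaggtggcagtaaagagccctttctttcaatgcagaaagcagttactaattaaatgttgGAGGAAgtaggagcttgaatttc
Tlr13: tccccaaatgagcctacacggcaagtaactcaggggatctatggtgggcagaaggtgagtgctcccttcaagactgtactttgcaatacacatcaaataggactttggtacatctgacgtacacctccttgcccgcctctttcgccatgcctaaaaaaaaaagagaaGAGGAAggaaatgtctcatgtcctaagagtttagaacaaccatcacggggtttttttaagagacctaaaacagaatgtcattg
Tlr9: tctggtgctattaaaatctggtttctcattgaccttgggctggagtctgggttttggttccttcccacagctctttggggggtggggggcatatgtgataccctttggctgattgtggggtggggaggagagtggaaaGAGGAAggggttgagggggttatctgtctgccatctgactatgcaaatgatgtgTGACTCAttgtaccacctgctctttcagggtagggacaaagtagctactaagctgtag
Myd88: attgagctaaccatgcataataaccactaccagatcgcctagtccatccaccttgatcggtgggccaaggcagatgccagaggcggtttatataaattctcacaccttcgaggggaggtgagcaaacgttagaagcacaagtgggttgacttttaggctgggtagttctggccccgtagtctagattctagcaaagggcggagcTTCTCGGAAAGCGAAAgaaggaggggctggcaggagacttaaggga

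Matches were searched on both strands. GAGGAA, the core of the site of PU.1, a master regulator of myeloid genes, lies in the printed windows of Tlr1, Tlr9 and Tlr13, starting 23, 112 and 83 bases before the transcript start. It is common, being in 23.25% of all 32851 windows of this length. The NF-kB motif lies in the Tlr2 window, where overlapping matches begin 173 and 172 bases before the start. It is in 3.90% of all windows, and it was added to the search after the windows had been seen. TGANTCA, the AP-1 motif, lies 58 bases before the start of Tlr9 and is in 6.75% of all windows. In the Myd88 window TTCNNNGAA (STAT) at 46 bases overlaps the IRF motif (GAAA, any 2 bases, GAAA) at 40 bases before the start, and these motifs are in 7.02% and 2.98% of all windows. The 3 windows not printed belong to Tlr1 and Tlr6, and the second Tlr1 window held a STAT match and 1 of the 2 Tlr6 windows held 2 overlapping IRF matches. A match is a run of letters, not a measured binding site.

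**Figure D1:**
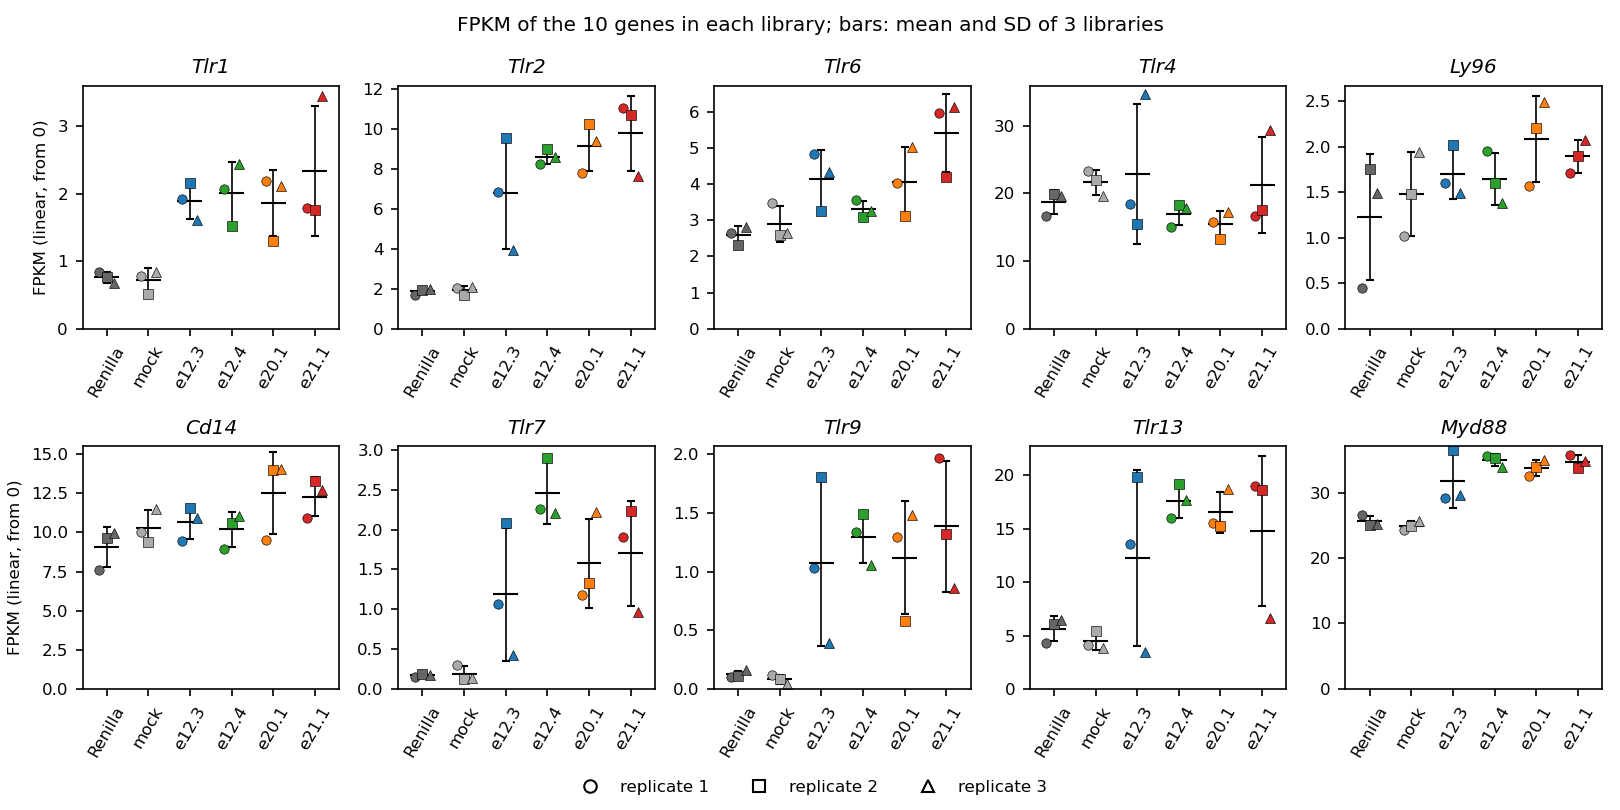
FPKM of each of the 10 genes (linear axis from 0) in the 18 libraries, by group, with the mean and SD of the 3 libraries of a group. In Tlr1, Tlr2, Tlr7, Tlr9 and Myd88 all 12 guide libraries lie above all 6 control libraries, while in Tlr4 the guide libraries spread from 13.2 to 34.7 FPKM around the controls.

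Compared with the Renilla guide, the 4 Jmjd1c guides together had higher transcript levels of Tlr2, Tlr13, Tlr7, Tlr1, Tlr6 and Myd88, whereas Tlr4, Cd14 and Ly96 did not pass the test. The changes ranged from 1.32 times the Renilla mean for Myd88 to 10.1 times for Tlr7. In a limma-trend fit on log2(FPKM + 1) over the 11550 that averaged 1 FPKM or more, 6 of the 9 genes tested were called higher at an adjusted p under 0.05 and 0 lower. Over all genes tested, 7.77% were called higher. The median log2 difference was 0.52 over the 9 genes and -0.03 over all genes tested. Tlr9 had a mean of 0.846 FPKM and was not part of that fit. Tlr1 and Tlr7 passed the filter only through the guide libraries, so they had to differ to be tested. Of the 7 that averaged 1 FPKM or more in the 6 controls, 4 were called higher (Tlr2, Tlr6, Tlr13 and Myd88), against 7.07% of all genes that meet this condition.

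Counted without a model, the 12 guide libraries lay above all 3 Renilla libraries in 6 of the 10 genes (5 of the 9 that passed the filter), against 6.26% of all genes tested. They lay above all 6 control libraries in 5 of the 10 genes (4 of those 9), against 4.92%. The 5 genes are Tlr1, Tlr2, Tlr7, Tlr9 and Myd88, and Tlr6 is added when Renilla alone is the control. Tlr1 and Tlr7, which passed the filter only through the guide libraries, are in the counts of those that passed, so these counts too are raised by the filter. These are bulk RNA levels, in which more transcript per cell and a larger share of cells that express a gene cannot be told apart.

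Tlr2, the receptor shared by both lipopeptide-sensing pairs, had the largest change of the surface receptors. It was at 1.70, 1.95 and 1.99 FPKM in the Renilla libraries and at 2.02, 1.69 and 2.06 FPKM in the mock libraries. It stood at 11.0, 10.7 and 7.62 FPKM with e21.1, at 7.79, 10.2 and 9.37 with e20.1, at 8.23, 9.02 and 8.60 with e12.4, and at 6.86, 9.56 and 3.95 with e12.3. The lowest guide library, e12.3 replicate 3, was still above the highest control. The mean rose from 1.88 ± 0.159 FPKM (SD, n = 3) to 8.58 ± 1.93 FPKM (SD, n = 12), a ratio of 4.57, and the limma log2 difference was 1.70 ± 0.164 (SE, adjusted p = 4.9e-06). Tlr2 passed the limma test for each guide alone, with log2 differences from 1.37 (e12.3, adjusted p = 0.0012) to 1.89 (e21.1, adjusted p = 2.4e-05). The gene lies at chr3:83836272-83841767 on the minus strand (ENSMUSG00000027995.10, GRCm38).

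Tlr1 (chr5:64924679-64933563, minus strand, ENSMUSG00000044827.10), the partner for triacylated lipopeptides, was low in every group. Its Renilla libraries had 0.833, 0.770 and 0.670 FPKM and its mock libraries 0.785, 0.509 and 0.845 FPKM. The guide libraries had 1.78, 1.76 and 3.44 FPKM with e21.1, 2.18, 1.29 and 2.10 with e20.1, 2.06, 1.52 and 2.44 with e12.4, and 1.92, 2.15 and 1.61 with e12.3. Again no guide library reached down to a control library. The means were 0.758 ± 0.0820 FPKM (SD, n = 3) for Renilla and 2.02 ± 0.551 FPKM (SD, n = 12) for the guides, with a limma log2 difference of 0.76 ± 0.154 (SE, adjusted p = 0.0038). Because 1 FPKM is added before the logarithm, this difference understates the ratio of 2.67 between the means.

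Tlr6 (chr5:64952031-64960097, minus strand, ENSMUSG00000051498.6), the partner for diacylated lipopeptides and the neighbour of Tlr1 on chromosome 5, rose less. It was at 2.64, 2.33 and 2.81 FPKM with Renilla and 3.48, 2.59 and 2.64 FPKM in mock. With the Jmjd1c guides it ran from 3.09 FPKM (e12.4 replicate 2) through a median of 4.11 to 6.14 FPKM (e21.1 replicate 3). All 12 guide libraries lay above the Renilla libraries, but 4 of them lay below mock replicate 1. The means were 2.59 ± 0.243 and 4.23 ± 1.07 FPKM, a ratio of 1.63, and the limma log2 difference was 0.52 ± 0.132 (SE, adjusted p = 0.018). The call was lost without Renilla replicate 1 (adjusted p = 0.066) and without Renilla replicate 2 (adjusted p = 0.10), and against mock Tlr6 was not called (0.40, adjusted p = 0.074). Against mock it was called with array quality weights (adjusted p = 0.0044) and without replicate 2 of e12.3, e20.1 or e21.1 (0.047, 0.035 and 0.039). Tlr1 and Tlr6 transcripts share 603 runs of 31 bases, 19.5% of those in Tlr1 and 16.3% of those in Tlr6, so how reads were divided between them is uncertain. No other pair among these receptors and Tlr8 shared such a run.

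Among the endosomal receptors, Tlr7 and Tlr9 had the largest ratios of the 10 genes. Tlr7 (chrX:167304929-167330558, minus strand, ENSMUSG00000044583.13), which senses single-stranded RNA, was low in the controls, with 0.151, 0.183 and 0.179 FPKM for Renilla and 0.301, 0.129 and 0.138 FPKM for mock. It reached 1.91, 2.23 and 0.968 FPKM with e21.1, 1.18, 1.33 and 2.216 with e20.1, 2.26, 2.90 and 2.20 with e12.4, and 1.07, 2.08 and 0.423 with e12.3. Every guide library was above every control, and the replicate 3 libraries of e12.3 and e21.1 were the lowest of the guide libraries. The means were 0.171 ± 0.0171 FPKM (SD, n = 3) and 1.73 ± 0.720 FPKM (SD, n = 12), a ratio of 10.1. The limma log2 difference was 1.17 ± 0.196 (SE, adjusted p = 0.00084), and 1.29 (adjusted p = 1.9e-05) without those libraries.

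Tlr9 (chr9:106222598-106226883, plus strand, ENSMUSG00000045322.10), the receptor for CpG DNA, was lower still in the controls. It was at 0.104, 0.111 and 0.158 FPKM with Renilla and at 0.115, 0.0882 and 0.0412 FPKM in mock. The guide libraries had 1.97, 1.32 and 0.862 FPKM with e21.1, 1.30, 0.578 and 1.48 with e20.1, 1.33, 1.49 and 1.06 with e12.4, and 1.03, 1.80 and 0.391 with e12.3. The groups did not overlap. The mean was 1.218 ± 0.463 FPKM (SD, n = 12) against 0.124 ± 0.0293 FPKM (SD, n = 3), a ratio of 9.81. An exact two-sided permutation test of log2(FPKM + 1), set for genes under the filter, gave a difference of 0.95 and p = 0.0022. That is the smallest value that 12 against 3 libraries allow. The test takes the 12 libraries of the 4 guides as unpaired replicates of a single condition, so this p does not measure the spread between guides. For a single guide against Renilla the exact test cannot go below p = 0.10, and each of the 4 guides gave that value. At these levels the values of Tlr7 and Tlr9 in the Renilla libraries and mock replicates 2 and 3 rest on few reads, and so do their ratios to Renilla. Mock replicate 1 was sequenced deeper, at 54.3 reads per 0.1 FPKM of a 3 kb transcript against 9.11 to 11.5 in the Renilla libraries.

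Tlr13 (chrX:106143204-106160493, plus strand, ENSMUSG00000033777.4), a receptor for bacterial ribosomal RNA that mice have and humans lack, was the most abundant of the endosomal receptors. It was at 4.29, 6.09 and 6.48 FPKM with Renilla and at 4.07, 5.43 and 3.86 FPKM in mock. With the guides it was at 19.0, 18.7 and 6.63 FPKM (e21.1), 15.6, 15.3 and 18.7 (e20.1), 16.0, 19.2 and 17.6 (e12.4), and 13.6, 19.8 and 3.47 (e12.3). Of the 12 guide libraries 10 were at 13.6 FPKM or more, above every control, whereas e12.3 replicate 3 was below every control and e21.1 replicate 3 just above the highest. The mean was 15.3 ± 5.19 FPKM (SD, n = 12) against 5.62 ± 1.17 FPKM (SD, n = 3), and the limma log2 difference was 1.20 ± 0.345 (SE, adjusted p = 0.034). The call was lost without any 1 of the Renilla libraries, replicates 1, 2 and 3 (adjusted p = 0.17, 0.091 and 0.073). It was also lost, at adjusted p from 0.051 to 0.053, without e12.3 replicate 1, e12.4 replicate 2, e12.4 replicate 3 or e20.1 replicate 3. Without the pair that stood apart, the difference was 1.48 ± 0.131 (SE, adjusted p = 2.5e-06), and Tlr13 was then called higher for each guide alone. That pair has the lowest Tlr13 values of the guide libraries, so leaving it out had to raise the difference and is no independent support.

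Tlr4 (chr4:66827584-66930284, plus strand, ENSMUSG00000039005.13), the lipopolysaccharide receptor, was the most abundant of the 7 receptors in the controls and did not pass the test. It was at 16.7, 19.9 and 19.6 FPKM with Renilla and at 23.3, 22.0 and 19.6 FPKM in mock. The guide libraries had 16.7, 17.5 and 29.4 FPKM with e21.1, 15.8, 13.2 and 17.2 with e20.1, 15.01, 18.2 and 17.8 with e12.4, and 18.5, 15.4 and 34.7 with e12.3. The 2 highest values of all 18 libraries were those of the pair that stood apart, and the other 10 guide libraries had 13.2 to 18.5 FPKM, all below the Renilla mean of 18.7. The limma log2 difference from Renilla was -0.02 with a 95% confidence interval from -0.42 to 0.39 (adjusted p = 0.97), so a change of either sign within that interval is not excluded. Without those libraries it was -0.16 (adjusted p = 0.26) against Renilla, and against mock it was -0.36 and called (adjusted p = 0.017), whereas with all libraries it was -0.22 (adjusted p = 0.58). As that pair has the highest Tlr4 values, leaving it out had to lower the difference, and that call is no independent support. With all libraries and array quality weights, Tlr4 was also called lower than mock (-0.27, adjusted p = 0.029).

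Cd14 (chr18:36725067-36726798, minus strand, ENSMUSG00000051439.7), which hands lipopolysaccharide to Tlr4, was at 7.61, 9.61 and 9.95 FPKM with Renilla and 10.0, 9.37 and 11.5 FPKM in mock. The 12 guide libraries ran from 8.94 through a median of 11.0 to 14.1 FPKM. The groups overlapped, with 5 of the 12 guide libraries above the highest control. The limma log2 difference was 0.30 (95% confidence interval 0.05 to 0.55, adjusted p = 0.13). Without e20.1 replicate 1 it was 0.34 and passed the test (adjusted p = 0.041), and without Renilla replicate 1 it was 0.19 (adjusted p = 0.49).

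Ly96 (chr1:16688051-16709611, plus strand, ENSMUSG00000025779.10), the subunit of the Tlr4 complex that holds the lipid, was at 0.445, 1.76 and 1.49 FPKM with Renilla, at 1.02, 1.48 and 1.95 FPKM in mock, and at 1.38 to 2.50 FPKM with the guides (median 1.80). Renilla replicate 1 was the lowest of all libraries, and the groups overlapped. The limma log2 difference was 0.39 (95% confidence interval 0.03 to 0.75, adjusted p = 0.17), and 0.10 (adjusted p = 0.78) without Renilla replicate 1. None of the 3 genes of the lipopolysaccharide complex, Tlr4, Cd14 and Ly96, was thus called against Renilla in the main fit, which has no covariate. With the replicate number as a block, limma called Cd14 higher for the 4 guides (0.30, adjusted p = 0.019), for e20.1 (0.019) and for e21.1 (0.014).

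Myd88 (chr9:119335934-119341411, minus strand, ENSMUSG00000032508.8), the adaptor of all 7 receptors, was the most abundant of the 10 genes and had a small change with little spread. It was at 26.6, 25.1 and 25.1 FPKM with Renilla and at 24.3, 24.9 and 25.6 FPKM in mock. With the guides it was at 35.8, 33.7 and 34.8 FPKM (e21.1), 32.5, 33.9 and 35.0 (e20.1), 35.6, 35.3 and 33.9 (e12.4), and 29.2, 36.5 and 29.6 (e12.3). No guide library overlapped the controls. The mean rose from 25.6 ± 0.844 FPKM (SD, n = 3) to 33.8 ± 2.33 FPKM (SD, n = 12), a ratio of 1.32, with a limma log2 difference of 0.38 ± 0.0651 (SE, adjusted p = 0.00091).

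**Figure D2:**
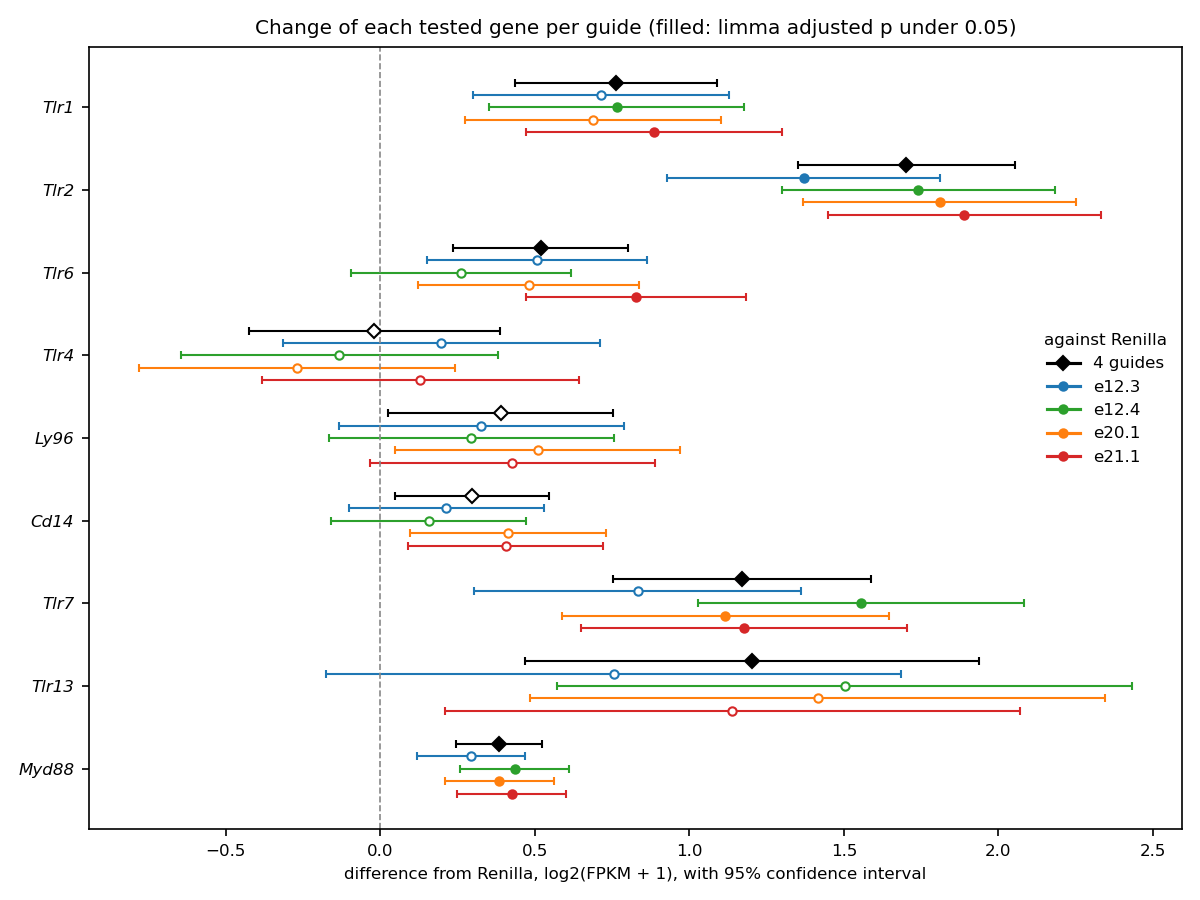
Difference of each of the 9 tested genes from the Renilla libraries on the log2(FPKM + 1) scale with 95% confidence intervals, for the 4 guides together (diamonds) and each guide (circles), with filled symbols where the limma adjusted p is under 0.05. Tlr2 is filled for each guide, and Tlr4, Ly96 and Cd14 for none.

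Taken guide by guide against Renilla with limma, the calls differed in number. With e12.3 only Tlr2 was called higher, 1 of 9, where 3.03% of all genes tested were. With e12.4 Tlr2, Tlr7, Myd88 and Tlr1 were called, 4 of 9 against 5.57%. There Tlr13 at 1.503 had an adjusted p of 0.0502 and was not called. Tlr13 was called for e12.4 with upper-quartile scaling and with the filter of 5 FPKM in 3 libraries (adjusted p = 0.048 each), with protein-coding genes only (0.040), with these groups alone (0.0017) and with array quality weights (6.1e-06). The Tlr1 call for e12.4 was lost in 5 of the 6 fits that left out 1 library, at adjusted p from 0.058 to 0.12, and held only without e12.4 replicate 2 (0.030). With e20.1 Tlr2, Tlr7 and Myd88 were called, 3 of 9 against 4.61%, of which Tlr7 was lost without e20.1 replicate 3 (adjusted p = 0.070). Tlr1 at 0.69 had an adjusted p of 0.0506 for e20.1 and was not called. It was called there with a pseudocount of 0.1 (0.031), protein-coding genes only (0.038), array quality weights (8.2e-05) and without the pair that stood apart (0.0091). In 5 of the 6 fits that left out 1 library it stayed without a call. With e21.1 Tlr2, Tlr1, Tlr6, Tlr7 and Myd88 were called, 5 of 9 against 7.06%. Without the pair that stood apart, Tlr1, Tlr2, Tlr7, Tlr13 and Myd88 were called for e12.3, which was 5 of 9. In that fit 583 of the 11550 genes tested were called higher. The guide comparisons share the Renilla libraries, so they are not independent of each other. Where Tlr1 or Tlr7 is among the genes called, the count includes a gene that had to differ to be tested. Both passed the filter only through the guide libraries, so the counts cannot be read straight against the shares of all genes.

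The pairs of guides were compared by setting e20.1 and e21.1 against e12.3 and e12.4, paired by the start of their names. Differences of the 9 tested genes ran from -0.10 for Tlr4 to 0.29 for Tlr2 on the log2 scale, with confidence bounds from -0.51 to 0.80. None of the 9 was called by limma, and the share called among all genes tested was 0.0%. Without adjustment 179 genes (1.55%) had a p under 0.05, 2 of the 9 among them, and fits without a filter, with array quality weights or without replicate 3 of e12.3 (alone or with that of e21.1) called 1 gene each. Guides that share the start of their names were not tested against each other.

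Mock served as the other control, in a comparison that uses the same guide libraries. There Tlr2 (1.68, adjusted p = 5.7e-06), Tlr13 (1.48, adjusted p = 0.012), Tlr7 (1.15, adjusted p = 0.0011), Tlr1 (0.80, adjusted p = 0.0027) and Myd88 (0.42, adjusted p = 0.00044) were called higher by limma, 5 of 9 against 6.84% of all genes tested. Of these, Tlr7 and Tlr1 passed the filter only through the guide libraries, so they had to differ to be tested. The call of Tlr13 against mock was lost without mock replicate 1 (adjusted p = 0.067) and without mock replicate 3 (0.081). Set against each other, Renilla and mock differed in none of the 9 genes and in 0.0% of all genes tested. Their log2 differences ran from -0.20 for Tlr4 to 0.28 for Tlr13. Without adjustment 127 genes (1.1%) and 0 of the 9 had a p under 0.05, and limma called 1 gene without a filter, 4 with these groups alone in the model and 6 with array quality weights.

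**Figure D3:**
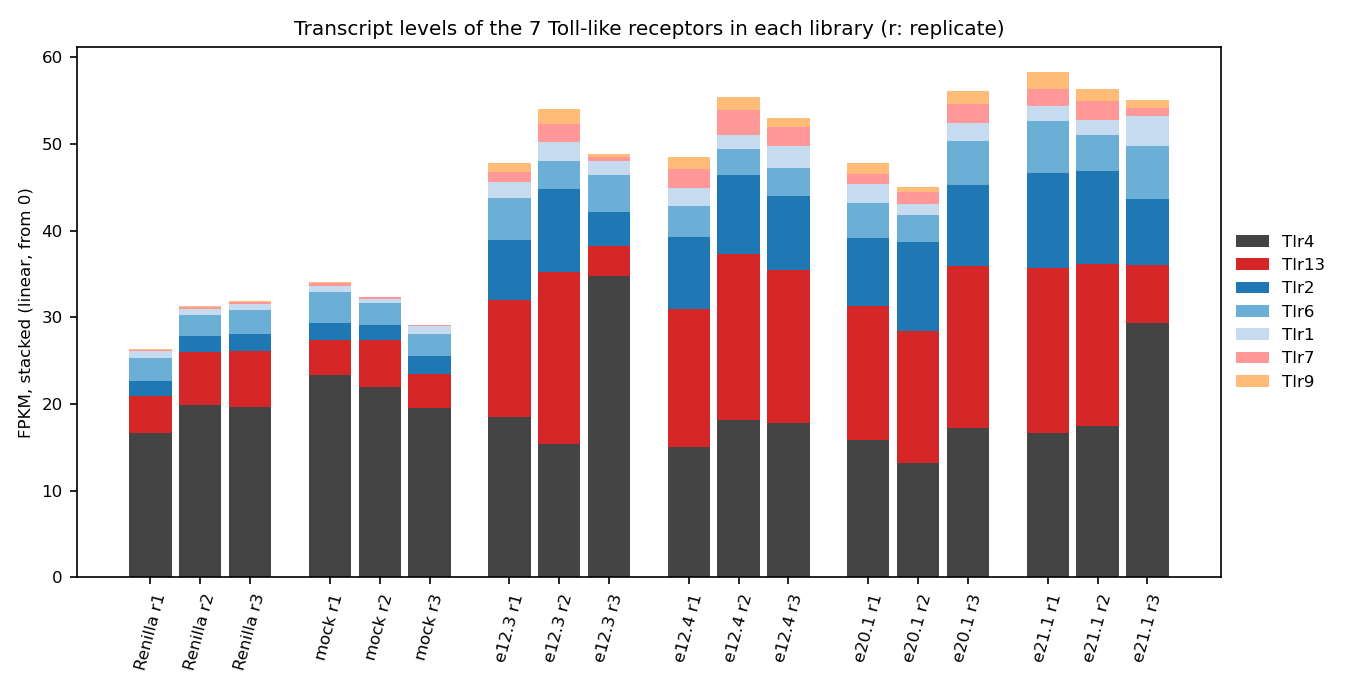
Stacked FPKM (linear axis from 0) of the 7 Toll-like receptors in each of the 18 libraries. The 6 control columns end between 26.4 and 34.1 FPKM and the 12 guide columns between 45.0 and 58.3 FPKM, with the tallest dark Tlr4 blocks in replicate 3 of e21.1 and of e12.3.

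The mix of receptor transcripts followed from these levels and is given as a description. The 7 receptors summed to 29.9 ± 3.03 FPKM with Renilla (SD, n = 3), 31.9 ± 2.51 FPKM in mock (SD, n = 3) and 52.2 ± 4.34 FPKM in the 12 guide libraries (SD). Tlr4 made up 61.5 to 68.4% of that sum in the controls and 28.6 to 38.7% in 10 guide libraries, but 71.0% in the third library of e12.3 and 53.4% in that of e21.1. The endosomal Tlr7, Tlr9 and Tlr13 made up 13.2 to 21.4% in the controls and 32.8 to 43.8% in those 10 guide libraries, but 8.75% and 15.4% in the replicate 3 libraries of e12.3 and e21.1. The summed level of e12.3 replicate 3 was thus like that of other guide libraries while its mix was not. Tlr6 had a like share in both, 8.92% in the controls and 8.10% with the guides on average, and Tlr2 went from 6.18% to 16.4%.

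By mean level the order with Renilla was Myd88, Tlr4, Cd14, Tlr13, Tlr6, Tlr2, Ly96, Tlr1, Tlr7 and Tlr9. Neighbours in that order whose libraries overlapped were Tlr2 and Ly96, Ly96 and Tlr1, and Tlr7 and Tlr9. With the Jmjd1c guides the order was Myd88, Tlr4, Tlr13, Cd14, Tlr2, Tlr6, Tlr1, Ly96, Tlr7 and Tlr9, and every pair of neighbours overlapped over the 12 libraries. Tlr13 passed Cd14, and Tlr2 passed Tlr6. Without the pair that stood apart, the order over 10 guide libraries was Myd88, Tlr13, Tlr4, Cd14, Tlr2, Tlr6, Tlr7, Tlr1, Ly96 and Tlr9. Tlr13 then averaged 17.3 FPKM and Tlr4 16.5 FPKM, with overlapping libraries. Myd88 (29.2 FPKM or more) then lay above Tlr13 (at most 19.8), Tlr2 (6.86 or more) above Tlr6, and Tlr6 (3.09 or more) above Tlr7 (at most 2.90).

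**Figure D4:**
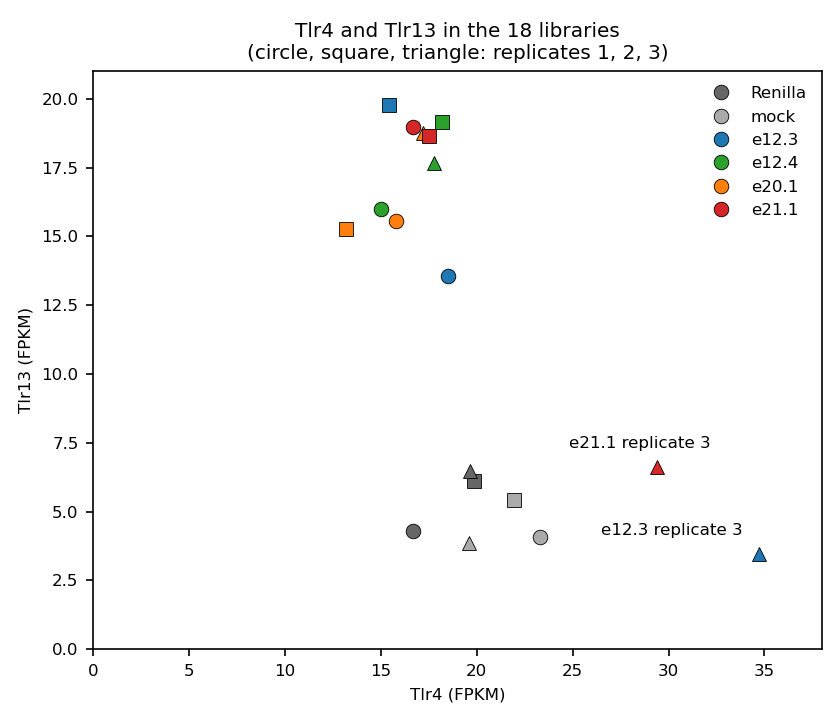
Tlr4 FPKM (horizontal, linear) against Tlr13 FPKM (vertical, linear) in the 18 libraries, coloured by group and shaped by replicate. The points of 10 guide libraries lie at 13.6 to 19.8 FPKM of Tlr13, the controls at 3.86 to 6.48, and the replicate 3 libraries of e21.1 and of e12.3 lie at the right with the highest Tlr4.

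The libraries that stood apart did so in the same genes. In e12.3 replicate 3 Tlr13 was at 3.47 FPKM where the other libraries of that guide averaged 16.7, and Tlr4 at 34.7 where they averaged 17.0. In e21.1 replicate 3 Tlr13 was at 6.63 FPKM against 18.8, and Tlr4 at 29.4 against 17.1. Tlr7, Tlr9 and Tlr2 were also lower in both libraries than in the others of their guide, at 0.423 against 1.57, 0.391 against 1.42 and 3.95 against 8.21 FPKM in e12.3 replicate 3. Cd14, Ly96, Myd88 and Tlr6 stayed within 1.215 times the mean of the others of their guide in both libraries. Tlr1 moved in opposite directions, down for e12.3 (1.61 against 2.03 FPKM) and up for e21.1 (3.44 against 1.77 FPKM). The same libraries had more transcript of Mpo, the myeloperoxidase of primary granules, at 1025 against 381 FPKM and 664 against 162 FPKM. Their 7 neutrophil markers summed to 916.5 and 640.7 FPKM, where the controls had 91.2 to 188.8 FPKM and the lowest guide library 111 FPKM. In both libraries S100a8, S100a9, Ltf, Camp and Ngp were above their means over the 12 guide libraries. Cxcr2 (6.62 and 6.79 against 8.38 FPKM) and Mmp8 (1.52 and 3.49 against 4.03 FPKM) were below theirs. The part of these differences in the results for the receptors was not tested beyond leaving the libraries out.

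Markers of other cell types were read beside the receptors. Of 6 tested monocyte and macrophage markers, Csf1r, Adgre1 and Cd68 were called higher and 0 lower by limma. With Renilla and with the guides, Ly6c2 had 768 and 654 FPKM (-0.25, adjusted p = 0.32). Fcgr1 had 7.51 and 6.31 FPKM (-0.32, adjusted p = 0.65) and Ccr2 38.9 and 46.9 FPKM (0.21, adjusted p = 0.65). The summed level of the 8 listed was 658 to 1003 FPKM with the guides and 791 to 925 FPKM in the controls. Csf1r, through which macrophages receive their main growth signal, rose from 2.25 to 11.8 FPKM (log2 difference 1.94, adjusted p = 2.3e-06). Of 6 tested neutrophil markers Ngp and Mmp8 were called higher, and the 7 listed summed to 111 to 916.5 FPKM with the guides. Mmp8 and the dendritic marker Itgax passed the filter only through the guide libraries, so they had to differ to be tested. The plasmacytoid dendritic markers Siglech and Ccr9 were under 0.5 FPKM in every library, but Tcf4 and Cox6a2 of that list were expressed. Tcf4 had 19.7 FPKM with Renilla and 25.7 FPKM with the guides (limma adjusted p = 0.12). Cox6a2 had 13.95 and 14.3 FPKM (adjusted p = 0.72), with 50.8 FPKM in e12.3 replicate 3. Of the conventional dendritic markers, 4 of 5 were under 0.5 FPKM in every library. Itgax had 0.223 FPKM with Renilla and 1.40 FPKM with the guides (0.91, adjusted p = 0.031). The B-cell markers Cd79a, Ms4a1 and Pax5 were under 0.5 FPKM in every library, and Cd79b reached 0.508 FPKM at most. Of the T-cell markers Cd3e, Cd3g, Cd4 and Cd8a were under 0.5 FPKM in every library as well. The T-cell marker Cd3d had 1.06 FPKM with Renilla and 1.21 FPKM with the guides and was not called (limma adjusted p = 0.81). Of the 7 markers of the labelled cells, Ptprc (0.37) and Itgam (0.73) were called higher and Mpo lower, from 1206 to 345 FPKM (-2.09, adjusted p = 0.00086). What part the myeloid markers have in the receptor levels was not tested.

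Outside the 10 genes, 57 genes of the pathway were listed by role, and of the 43 that could be tested 10 were called higher and 0 lower by limma for the 4 guides against Renilla. Over all genes tested the share called higher was 7.77%. Among other receptors and receptor helpers 1 of 6 tested was called, among adaptors 1 of 4, among kinases and ubiquitin ligases 0 of 16, among transcription factors 2 of 6, among inhibitors 2 of 7 and among induced outputs 4 of 4. Of the genes called, Irf7 (a transcription factor) and Nfkbiz (an output) passed the filter only through the guide libraries, so they had to differ to be tested. The median log2 difference was 0.00 for the receptor helpers, 0.15 for adaptors, 0.04 for kinases and ligases, 0.23 for transcription factors, 0.25 for inhibitors and 1.08 for the outputs. The receptors Tlr3, Tlr5, Tlr8, Tlr11 and Tlr12 were under 0.5 FPKM in every library.

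Unc93b1, the chaperone that carries endosomal Toll-like receptors out of the endoplasmic reticulum, rose from 38.2 ± 2.77 FPKM (SD, n = 3) to 61.0 ± 14.5 FPKM (SD, n = 12), a limma log2 difference of 0.63 (adjusted p = 0.0058). Unlike Tlr7, Tlr9 and Tlr13 it was highest in e21.1 replicate 3 (99.8 FPKM), and e12.3 replicate 3 had 78.4 FPKM. Cd180, a receptor-like relative of Tlr4, had 5.88 FPKM with Renilla and 13.6 FPKM with the guides but did not pass the test (0.98, adjusted p = 0.083). Like Tlr13 it was low in the pair that stood apart, at 3.35 FPKM (e12.3) and 5.32 FPKM (e21.1). The adaptor Pik3ap1, which links these receptors to phosphoinositide 3-kinase, rose from 22.6 to 38.3 FPKM (0.73, adjusted p = 0.00035).

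Downstream of the receptors, the transcription factor Irf5, which binds Myd88, rose from 4.38 ± 0.726 to 14.7 ± 3.17 FPKM (1.53, limma adjusted p = 1.1e-06). Irf7, which acts after Tlr7 and Tlr9, had 0.433 FPKM with Renilla and 1.73 FPKM with the guides (0.92, adjusted p = 0.00021) and passed the filter only through the guide libraries. Rela, the NF-kB subunit, had 25.0 and 27.5 FPKM and did not pass (0.14, adjusted p = 0.14). Of the kinases, Irak2 had 6.91 and 10.9 FPKM (0.52, adjusted p = 0.13) and Peli1, a ubiquitin ligase, 42.3 and 36.8 FPKM (-0.20, adjusted p = 0.13).

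The inhibitors Tnfaip3, also called A20, and Socs1 rose from 1.09 to 3.21 FPKM (1.00, limma adjusted p = 1.5e-05) and from 1.48 to 2.92 FPKM (0.64, adjusted p = 0.014). The third inhibitor by p, Nfkbia, had 15.5 and 19.8 FPKM and did not pass (0.32, adjusted p = 0.067). Among genes that these receptors are known to induce, the chemokine Ccl3 had the largest log2 difference of the 4 tested, from 9.34 ± 3.12 to 68.8 ± 17.5 FPKM (2.75, adjusted p = 1.7e-07). Tnf rose from 3.78 to 7.51 FPKM (0.82, adjusted p = 0.0028) and the NF-kB cofactor Nfkbiz from 0.928 to 2.06 FPKM (0.65, adjusted p = 0.0097). The fourth output, the chemokine Ccl4, rose from 2.52 to 8.60 FPKM (1.35, adjusted p = 0.015). Il6 and Il12b, outputs typical of stimulated macrophages, were under 0.5 FPKM in every library.

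For the 9 genes that passed the filter, those with the most similar levels over the 18 libraries were found by the root mean square difference of their centred log2(FPKM + 1) values among the 8538 that averaged 5 FPKM or more. For Tlr2 these were Ptafr, the receptor of platelet-activating factor, at 0.14, Fam129b at 0.15 and Tmem71 at 0.16, where Tlr2 itself varied by 0.84. For Tlr13 they were Slc2a6 at 0.13, Cd180 at 0.18 and Alox5, the enzyme that starts leukotriene synthesis, at 0.23, against 0.84 for Tlr13 itself. For Tlr7 they were Thbd and Csf2rb, a subunit of the interleukin-3 receptor, at 0.16 each and Nabp1 at 0.18, and for Tlr1 Padi2 at 0.13 and Lcp2 at 0.15. For Myd88, which varied by 0.21, they were Plin2 at 0.07, Itm2b at 0.08 and Por at 0.08. Without the replicate 3 libraries of e12.3 and e21.1, 2 of the 3 genes were the same for Tlr1, Tlr7, Cd14 and Ly96, 1 for Tlr2, Tlr4, Tlr13 and Myd88, and 0 for Tlr6. Likeness is a description of these libraries, and it is computed on values in which the low levels of Tlr7 and Tlr1 are compressed.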

How the data were processed

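Poly(A) RNA of 18 libraries was measured in 6 groups of 3. The authors deposited FPKM values, in 1 table of 23899 genes and in 15 separate tables that differ from it by at most 3.3e-06 FPKM. Per the submitters' processing notes, bcl2fastq 2.22.0.422, Salmon 0.13.0, R 3.5.3 and DESeq2 1.22.1 were used with mm10, and per the labels' protocols libraries were made with a directional kit. How Salmon divided reads between similar transcripts affects Tlr1 and Tlr6 most. Groups were taken from the sample titles.

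Depth came from the size of 1 read in FPKM multiplied by transcript length: 69.1 to 77.6% of values under 15 reads lay within 0.1 read of a whole number, where an even spread gives 20%, so no test on counts was run. Values were analysed as log2(FPKM + 1) with limma 3.58.1 in R 4.3.3 (trend, group means of all 6 groups, no covariate) over the 11550 that averaged 1 FPKM or more. A gene was called where its p, adjusted by Benjamini-Hochberg over all genes tested, was under 0.05. Tlr9, under the filter, had an exact permutation test. Tables were made in Python 3.11.15 (pandas 2.3.3, numpy 2.4.6) and figures in matplotlib 3.10.9.

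The 10 genes, the pathway and marker lists and the libraries left out were chosen with earlier results of these data known. All 10 genes are named. Of the pathway lists, up to 3 genes per role with the smallest p could be named, and Ccl4 was named after its values were seen. Marker genes are named where called or under 0.5 FPKM. Tcf4, Cox6a2, Cd79b, Cd3d, Ccr2, Ly6c2, Fcgr1, Cxcr2, S100a8, S100a9, Ltf and Camp were named after their values were seen. Coordinates are from GENCODE vM21 (GRCm38), which holds 98.92% of the symbols, and promoter windows from RefSeq (GRCm38.p6). Alternatives were a pseudocount of 0.1, no filter, a filter of 5 FPKM in 3 libraries, upper-quartile scaling, only the groups compared, the replicate number as a block, array quality weights, protein-coding genes only, both controls together, and libraries left out. Of the marker genes and the genes most alike, 2 are not reported here.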

Additional observations from a re-analysis of the deposited data

How the results depend on the processing

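Over the 4 guides together, 4 to 7 of the 9 genes were called with any 1 library left out, against 6 with all. Tlr2, Tlr7, Tlr1 and Myd88 kept their calls in every alternative that could test them, and upper-quartile scaling (factors 0.985 to 1.055) changed no call in that comparison. The count for e12.3, 1 with all libraries, was 3 with a pseudocount of 0.1, 0 with only these groups in the model, 6 with array quality weights, 5 without the pair that stood apart (replicate 3 of e21.1 and of e12.3), 2 with protein-coding genes only and 1 to 3 with 1 library left out. For e20.1 it went from 3 to 7 with weights, 1 of them Tlr4 called lower (-0.29, adjusted p = 0.044), and 5 without that pair. For e21.1 it went from 5 to 3 with the stricter filter and 2 with only these groups. Tlr1 and Tlr7 stayed under 5 FPKM in every library, so the stricter filter could not test them. Against mock it went from 5 to 3 with the stricter filter, which leaves fewer genes to test. The calls over all genes moved with these counts. For e12.3 they went from 370 to 2027 with weights, 709 without the pair and 80 with only these groups. For e20.1 they went from 656 to 3393 with weights and 1290 without the pair. For e21.1 they went from 1098 to 908 with the stricter filter and 332 with only these groups. Tlr13 lost its call without a filter (adjusted p = 0.076) and with only the groups compared (adjusted p = 0.060).

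No difference that turned sign was called. Tlr4 against Renilla ran from -0.10 to 0.038 with 1 library left out and was -0.16 without the pair. For e12.3 Tlr4 went from 0.20 to -0.082 with weights and -0.14 without the pair (-0.14 to 0.43 with 1 left out), and for e21.1 from 0.13 to -0.15 and -0.12 (-0.12 to 0.27). Ly96 for e12.4 went from 0.29 to -0.049 with weights. The cause was not tested.

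In their deviations from the group means, same-numbered libraries of different groups correlated above 0.1 in 26 of 45 pairs (-0.25 to 0.76, median 0.12). The main fit takes the libraries as unpaired, although 17 of 18 libraries were most like their own number. Pairing by replicate number is thus possible, and the labels do not settle it. With the replicate number as a block, 3 genes were called for e12.3 and 7 for e20.1. The calls over all genes went from 370 to 550 and from 656 to 989. Further calls were added for Cd14 with the 4 guides (0.30, adjusted p = 0.019) and with e21.1 (adjusted p = 0.014). They were also added for Tlr13 with e12.4 (adjusted p = 0.031) and Tlr6 against mock (adjusted p = 0.012). With weights Cd14 for the 4 guides was 0.15 (adjusted p = 0.15). Over all genes, 1268 were called for the 4 guides, 4864 with weights, 2085 without the pair, 2109 with both controls together, and 814 and 828 without Renilla replicates 1 and 2. Against mock 1040 were called, 3493 with weights, 1878 without the pair, and 580 to 649 without 1 mock library. Values under 0.5 FPKM rest on few reads in the shallower libraries, and 3 libraries per guide limit the precision of each guide.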
